A study of Homo sapiens with 6 samples.

Results

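The translation initiation factors (EIF genes) and elongation factors (EEF genes) were followed in T24 cells that overexpressed RNF112. All 65 genes of the deposited count table whose symbol begins with EIF or EEF and a digit were taken, of 23152 genes in all, leaving out the EIF2AK kinases. The members were taken by gene name alone, and the group itself was picked with earlier results of these data known. The members comprise 62 protein-coding genes and 3 noncoding transcripts named after a neighbouring factor gene. EIF4A1 was not analysed here.

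T24 is an established human bladder cancer (BLCA) cell line, and RNF112 is a RING-type E3 ubiquitin ligase. The study sequenced RNA to look for processes downstream of RNF112, comparing T24 cells given an empty vector (vector, n = 3) with T24 cells given RNF112 (oeRNF112, n = 3). All 6 samples were grown in the same medium and carried no other stated change. The labels give siRNA transfection with a lipid reagent as the treatment of every sample, while naming the groups vector and oeRNF112, and they do not say whether the replicates were separate cultures, so that p-values measure the spread between these samples, which may be technical. The vector libraries held 41259569, 40482655 and 40326143 reads assigned to genes. The oeRNF112 libraries held 40029547, 40541536 and 40375330.

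RNF112 itself had 27, 19 and 24 counts in vector and 29753, 36963 and 31712 counts in oeRNF112, which matched the labels in every sample. The line was also checked against its markers. KRT7, KRT8, KRT18 and VIM had at least 31265 counts in every sample, whereas the urothelial differentiation genes UPK2 and UPK3A had at most 7. The other markers lay between, with 5405 to 7274 counts for KRT19, 2056 to 2485 for PPARG and 571 to 1644 for FOXA1. GATA3 and EPCAM were low, with 117 to 173 and 66 to 183 counts. Of the 9 markers of the line that were tested 3 fell and 1 rose. The transcription factor FOXA1 had a log2 fold change of -1.08 (adjusted p = 0.0013), the keratins KRT18 and KRT7 of -0.51 (adjusted p = 0.013) and -0.48 (adjusted p = 0.023), and the adhesion molecule EPCAM of 0.84 (adjusted p = 0.021). Of markers of other cell types, the endothelial genes PECAM1, CDH5 and VWF had at most 11 counts and the fibroblast genes COL1A2 and DCN at most 1. The third fibroblast marker, COL1A1, had 262, 345 and 360 counts in vector and 418, 421 and 399 in oeRNF112, all above vector (log2 fold change 0.28, adjusted p = 0.21). Of the leukocyte genes, PTPRC had at most 54 counts and LAPTM5 had 293, 258 and 231 in vector and 215, 108 and 125 in oeRNF112. CD68, a lysosomal protein that is not limited to leukocytes, had 987, 870 and 955 counts in vector and 2125, 2645 and 2103 in oeRNF112. LAPTM5 fell (log2 fold change -0.88, adjusted p = 0.031) and CD68 rose (log2 fold change 1.21, adjusted p = 0.00031), and the part of these markers in the results was not tested.

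Initiation factors bring the initiator tRNA, the small ribosomal subunit and the capped mRNA together and find the start codon, and elongation factors then deliver each aminoacyl-tRNA and move the ribosome along the mRNA. Many elongation factor mRNAs, and those of some initiation factors, begin with a C followed by a run of pyrimidines, the 5′ terminal oligopyrimidine (TOP) motif that they share with ribosomal protein mRNAs and through which mTOR signalling and LARP1 control their translation and stability. Several initiation factor genes are also known targets of the transcription factor MYC, which binds the E-box CACGTG.

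Among these genes, the most abundant elongation factors and a group of eIF3 subunits fell in oeRNF112, and 3 less abundant paralogs rose. Of the 63 members with enough counts to be tested, 14 fell and 3 rose at an adjusted p under 0.05, against 8.14% of all 14467 genes tested that fell and 9.97% that rose (edgeR's quasi-likelihood test with Benjamini-Hochberg adjustment over all genes tested). The other 46 did not pass. The median log2 fold change was -0.10 over the members, with 41 fitted below 0 and 22 above, and 0.003 over all genes tested. With library totals in place of TMM, 32 members were fitted below 0 and 31 above, and the members' median was -0.0021, so the split around 0 depended on the scaling. The members' median was -0.16 without vector 2, and the members' median less that of all genes was -0.18 without vector 2 and -0.16 without oeRNF112 2, in place of -0.10. For 23 members all oeRNF112 samples lay below all vector samples in TMM-normalized level, and for 5 all lay above, where 17.9% and 18.9% of all genes tested showed these patterns. The number of members called was 17 with all samples, 8 without vector 1, 7 without oeRNF112 1 and 11 without oeRNF112 3. Without vector 2, vector 3 and oeRNF112 2, 19, 10 and 12 members fell and 3, 3 and 2 rose. Calls over all genes tested moved as well, from 2620 with all samples to 1061 without vector 1, so the loss of calls was not particular to the members. EIF4EBP3, with 1, 2 and 0 counts in vector and 3, 5 and 2 in oeRNF112, and EIF1B-AS1, with 9, 5 and 3 against 1, 3 and 15, were too low to be tested.

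**Figure D1:**
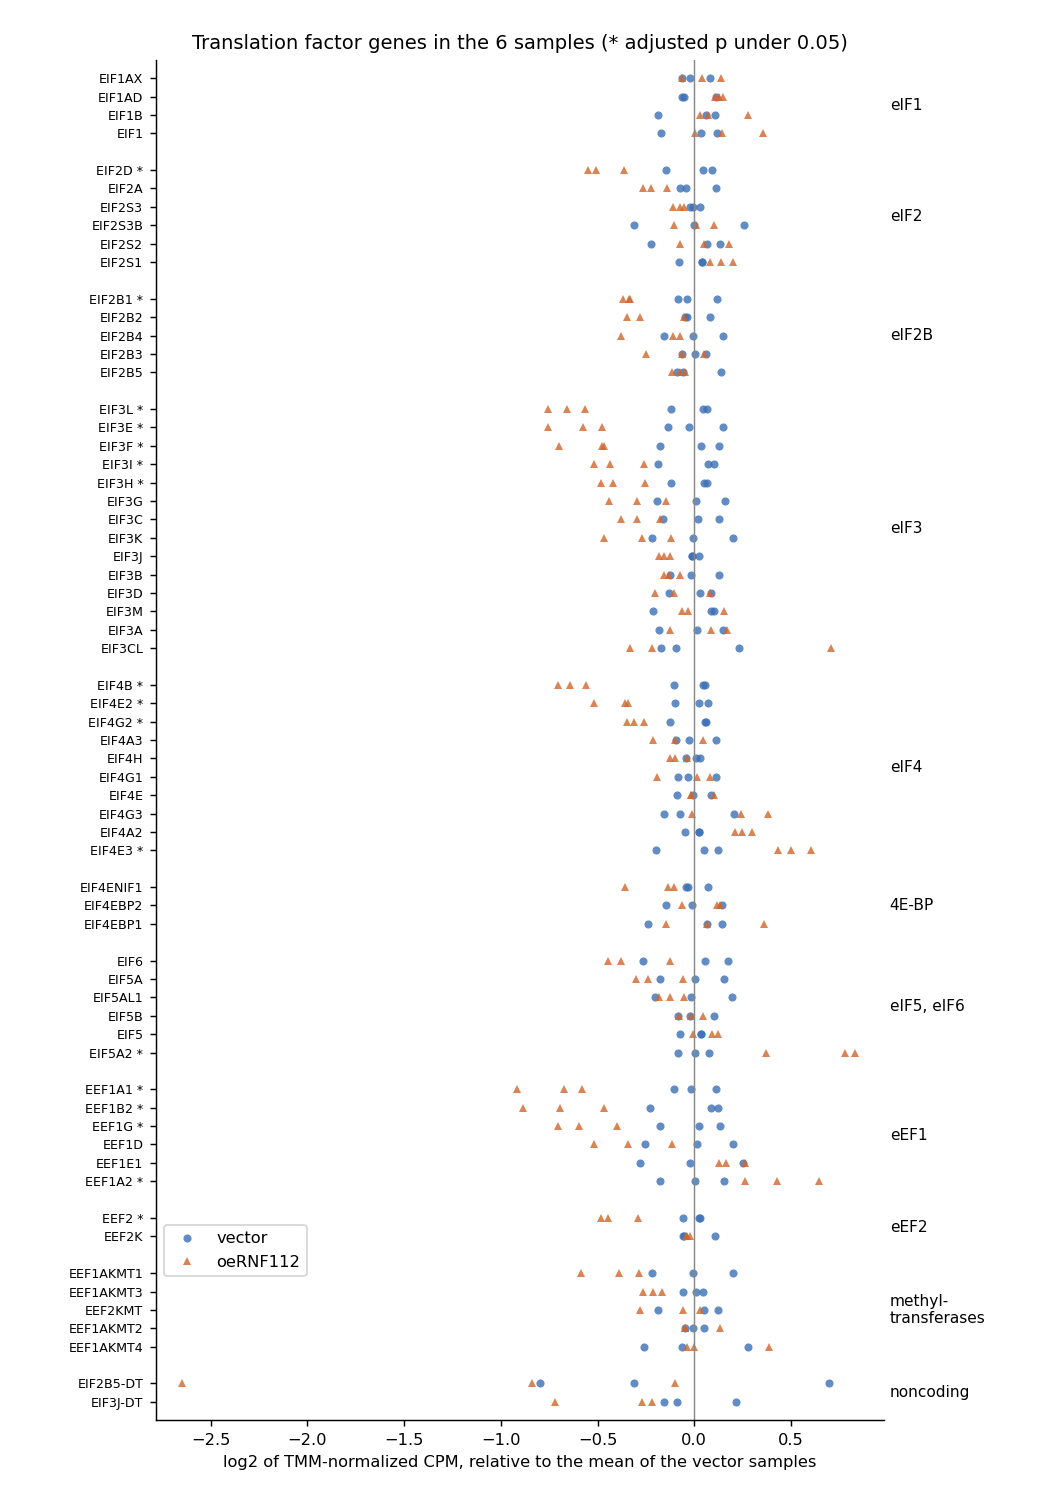
Log2 of TMM-normalized CPM of the 63 tested members in each sample, relative to the mean of the vector samples, grouped by role. Blue circles are vector samples, orange triangles are oeRNF112 samples, and an asterisk marks an adjusted p under 0.05. The orange triangles of EEF1A1, EEF1B2, EIF3L, EIF3E and EIF4B lie to the left of every blue circle, and those of EIF5A2, EIF4E3 and EEF1A2 to the right.

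The share of all counts that fell on the 65 genes was 3.15%, 2.89% and 3.04% in vector and 2.40%, 2.51% and 2.22% in oeRNF112. Every oeRNF112 sample was below every vector sample. EEF1A1 alone held 1.359%, 1.203% and 1.242% of counts in vector and 0.852%, 0.890% and 0.728% in oeRNF112. Without EEF1A1, the others held 1.786%, 1.686% and 1.802% in vector and 1.551%, 1.625% and 1.496% in oeRNF112, which again did not overlap. In RNA from whole cultures, fewer cells of a kind and less RNA per cell cannot be told apart.

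The eEF1 complex, which delivers aminoacyl-tRNA to the ribosome, held EEF1A1 and EEF1G, the members with the highest mean RPKM (the count corrected for gene length and for library size). Of the 6 genes grouped under eEF1 3 fell and 1 rose, with a median log2 fold change of -0.44. The number that fell was 2 without vector 1 or without oeRNF112 1 and 4 without vector 2. EEF1A1, the GTP-binding subunit that carries the aminoacyl-tRNA, had an RPKM of 3871, 3426 and 3538 in vector and 2426, 2533 and 2074 in oeRNF112. Its log2 fold change was -0.72 ± 0.12 (SE, adjusted p = 0.0038), so that it stood at 60.9% of its vector level after TMM normalization, with no overlap between the groups. The RefSeq transcript starts of EEF1A1 and EEF2, and 1 of the 2 listed for EEF1B2, show the TOP motif that these mRNAs are known for. The other start of EEF1B2 and the listed start of EEF1G do not begin with such a run. They are shown 5′ to 3′ from GRCh38.p14, with 10 bases before the first transcribed base, and the capitals mark the C at the start and the pyrimidines that follow it.

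EEF1A1, chr6:73521013-73521042, minus strand: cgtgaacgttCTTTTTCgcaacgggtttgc
EEF1B2, chr2:206159885-206159914, plus strand: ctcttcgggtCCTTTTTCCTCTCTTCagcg
EEF2, chr19:3985444-3985473, minus strand: cgtcagcgttCTCTTCCgccgtcgtcgccg

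EEF1B2, the nucleotide exchange factor that reloads eEF1A with GTP, had an RPKM of 622, 515 and 637 in vector and 392, 449 and 347 in oeRNF112. It fell by 0.67 ± 0.13 on the log2 scale (adjusted p = 0.0074). EEF1G, the scaffold subunit of the exchange complex, had an RPKM of 1832, 1643 and 1973 in vector and 1286, 1445 and 1209 in oeRNF112. It fell by 0.56 ± 0.12 (adjusted p = 0.011), and its adjusted p was 0.058 without vector 1 and 0.060 without oeRNF112 1. EEF1D, the other exchange subunit, had an RPKM of 97.8, 83.7 and 111 against 82.5, 94.4 and 74.0, and these groups overlapped (log2 fold change -0.32 ± 0.14, adjusted p = 0.14, and 0.026 without vector 2). EEF1E1, which is part of the multi-tRNA-synthetase complex, had a log2 fold change of 0.19 (adjusted p = 0.40). Near-identical processed copies of EEF1A1 and EEF1B2 lie elsewhere in the genome, so reads may be split between copies and these levels are uncertain.

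EEF1A2, the paralog of EEF1A1 that is typical of muscle and neurons, moved the other way. Its RPKM was 108, 98.1 and 119 in vector and 156, 178 and 141 in oeRNF112. All oeRNF112 samples were above all vector samples, with a log2 fold change of 0.45 ± 0.12 (adjusted p = 0.027). Its adjusted p was 0.091 without vector 1, 0.081 without oeRNF112 1 and 0.059 without oeRNF112 2. The ratio of EEF1A1 to EEF1A2 in RPKM was 35.9, 34.9 and 29.7 in vector and 15.5, 14.3 and 14.7 in oeRNF112. EEF1A1 therefore remained the more abundant paralog in all 6 samples. The lower ratio in oeRNF112 follows from the fall of EEF1A1 and the rise of EEF1A2 and is no separate result.

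EEF2, the GTPase that moves the ribosome by a codon, had an RPKM of 848, 821 and 843 in vector and 659, 718 and 650 in oeRNF112. It fell by 0.40 ± 0.09 on the log2 scale (adjusted p = 0.018), with no overlap between the groups. Its adjusted p was between 0.052 and 0.096 without vector 1, vector 3, oeRNF112 1 or oeRNF112 3. By limma on RPKM, an alternative described further on, it did not pass. EEF2K, the kinase that inhibits eEF2, had an RPKM of 7.26, 8.35 and 7.22 against 7.89, 7.86 and 8.02 (log2 fold change -0.03, adjusted p = 0.81). The 5 methyltransferases that modify eEF1A or eEF2 did not pass, with a median of -0.10. Of these EEF1AKMT1 had the smallest p, with a log2 fold change of -0.42 (adjusted p = 0.10, and 0.048 without vector 2), and EEF2KMT was the most abundant, with a log2 fold change of -0.10.

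**Figure D2:**
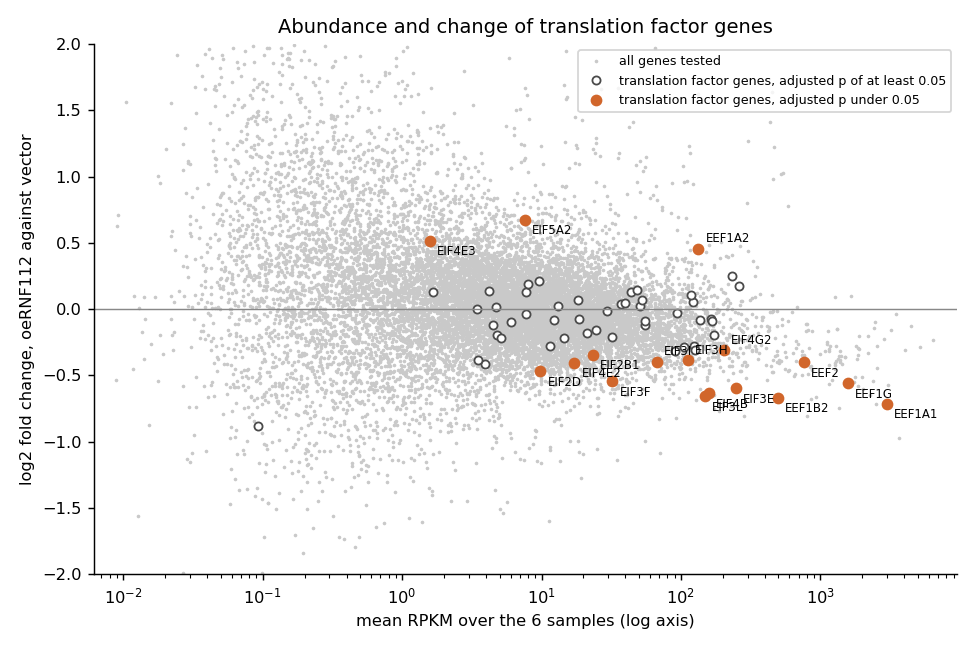
Log2 fold change of oeRNF112 against vector (vertical axis) by mean RPKM over the 6 samples (log axis). Grey points are all genes tested, of which 143 lie beyond the plotted range of 2 on either side. Open circles are members with an adjusted p of at least 0.05 and orange circles are members under it. The members that fell include the 4 at the right end, EEF1A1, EEF1G, EEF2 and EEF1B2.

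Abundance was set beside the change with a threshold chosen after values were seen. Among the 21 members whose mean RPKM reached 100, 9 fell and 1 rose, with a median log2 fold change of -0.29. Among the 42 less abundant members tested, 5 fell and 2 rose, with a median of -0.08. Without vector 1 or without oeRNF112 1, 5 of the abundant and 1 of the less abundant members were called lower, without vector 2 these were 11 and 8, without vector 3 they were 7 and 3, and without oeRNF112 3 they were 6 and 2. The 555 other genes that reached this mean had a median of -0.19, and 99 of them fell while 40 rose.

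eIF3, the large scaffold that joins the small ribosomal subunit to the mRNA, had 5 subunits that fell and none that rose among 14 genes, with a median log2 fold change of -0.28. This median was -0.37 without vector 2, and -0.19 without vector 3 or with library totals. It was -0.13 with the length trend of each sample removed, an alternative described further on. The number that fell was 3 without vector 1, vector 3, oeRNF112 1 or oeRNF112 3, and 8 without vector 2, where EIF3C, EIF3G and EIF3K also passed (adjusted p = 0.032, 0.026 and 0.034). EIF3L, a subunit of the octamer that forms the core of the complex, had an RPKM of 185, 167 and 181 in vector and 120, 126 and 114 in oeRNF112. It fell by 0.66 ± 0.09 on the log2 scale (adjusted p = 0.0017), and the groups were well separated. EIF3E, an octamer subunit that contacts eIF4G, had an RPKM of 317, 269 and 280 in vector and 208, 218 and 185 in oeRNF112. It fell by 0.60 ± 0.11 (adjusted p = 0.0053).

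EIF3F and EIF3H, which hold the MPN domains of the octamer, fell by 0.54 ± 0.11 (adjusted p = 0.0074) and 0.38 ± 0.10 (adjusted p = 0.023). EIF3F had an RPKM of 37.6, 33.6 and 40.1 in vector and 28.5, 28.1 and 24.8 in oeRNF112. EIF3H had an RPKM of 128, 116 and 127 in vector and 99.2, 109 and 96.03 in oeRNF112. Neither overlapped between the groups, but the adjusted p of EIF3H was between 0.060 and 0.11 without vector 1, vector 3, oeRNF112 1 or oeRNF112 3.

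EIF3I, a WD-repeat subunit outside the octamer, had an RPKM of 77.7, 66.9 and 79.3 in vector and 59.1, 65.3 and 56.5 in oeRNF112. It fell by 0.40 ± 0.11 (adjusted p = 0.029), with an adjusted p between 0.077 and 0.13 without vector 1, vector 3, oeRNF112 1 or oeRNF112 3. Its adjusted p was 0.053 with library totals, and it did not pass by limma on log2(RPKM + 1) over all genes tested. The 8 octamer subunits (EIF3A, C, E, F, H, K, L and M) had a median of -0.33 with 4 falling, and the 5 others (EIF3B, D, G, I and J) a median of -0.16 with 1 falling. These counts depended on single libraries and were 6 and 2 without vector 2 but 3 and 0 without vector 1. Within the octamer EIF3A and EIF3M had fitted log2 fold changes of 0.05 and 0.02, beside -0.66 for EIF3L.

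EIF3CL, a near-identical copy of EIF3C, had 486, 467 and 596 counts in vector and 468, 429 and 908 in oeRNF112. The third oeRNF112 sample stood apart. Reads of EIF3C and EIF3CL may be split between them, and their summed TMM-normalized CPM was 62.1, 52.3 and 61.6 in vector and 48.4, 50.8 and 56.5 in oeRNF112, which overlapped.

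The factors that recognize the cap and unwind the mRNA gave 3 falls and 1 rise among 10 genes, with a median of -0.06. Without vector 1, oeRNF112 1 or oeRNF112 3, EIF4B alone was called lower. EIF4B, which stimulates the helicase eIF4A, had an RPKM of 194, 198 and 173 in vector and 137, 126 and 125 in oeRNF112. It fell by 0.63 ± 0.09 on the log2 scale to 64.4% of its vector level (adjusted p = 0.0017), and had the smallest adjusted p of the members. EIF4G2, a homolog of eIF4G that does not bind eIF4E, had an RPKM of 223, 231 and 197 in vector and 194, 179 and 189 in oeRNF112. These groups did not overlap, and its log2 fold change of -0.31 ± 0.09 had an adjusted p of 0.042. With any 1 of vector 1, vector 2, oeRNF112 1, oeRNF112 2 and oeRNF112 3 left out, its adjusted p was between 0.073 and 0.19. EIF4G2 was also not called with library totals in place of TMM (adjusted p = 0.12). Nor was it with every gene that had at least 1 count kept, or by limma on RPKM.

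The cap-binding subunit EIF4E had an RPKM of 13.3, 12.8 and 11.7 in vector and 13.3, 13.1 and 14.7 in oeRNF112, and the scaffold EIF4G1 84.7, 100 and 87.9 against 98.1, 83.3 and 104. Both overlapped between the groups, with log2 fold changes of 0.02 ± 0.09 and -0.03 ± 0.10 (adjusted p = 0.88 each). EIF4A2, a helicase paralog, had an RPKM of 204, 210 and 194 in vector and 258, 262 and 254 in oeRNF112. Every oeRNF112 sample was higher, and its log2 fold change of 0.25 ± 0.08 missed the threshold (adjusted p = 0.053), while DESeq2 gave an adjusted p of 0.022, and the adjusted p over all alternatives lay between 0.0087 and 0.28.

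Of the cap-binding homologs, EIF4E2, which represses translation of bound mRNAs, had an RPKM of 19.8, 18.1 and 19.1 in vector and 15.9, 15.7 and 14.4 in oeRNF112. It fell by 0.40 ± 0.09 (adjusted p = 0.015, and between 0.056 and 0.089 without vector 1, oeRNF112 1 or oeRNF112 3). EIF4E3, a low-abundance homolog, had an RPKM of 1.35, 1.32 and 1.08 in vector and 1.89, 1.99 and 1.83 in oeRNF112. It rose by 0.51 ± 0.12 (adjusted p = 0.014, and 0.055 without oeRNF112 1). The RPKM ratio of EIF4E2 to EIF4E3 was 14.7, 13.7 and 17.7 in vector and 8.41, 7.90 and 7.86 in oeRNF112. This lower ratio follows from the fall of EIF4E2 and the rise of EIF4E3 and is no separate result.

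Of the 3 tested eIF4E inhibitors and transporters none passed, with a median of 0.07. With the length trend of each sample removed, an alternative described further on, EIF4EBP1 (0.26, adjusted p = 0.013) and EIF4ENIF1 (-0.24, adjusted p = 0.041) passed. EIF4EBP1, the mTOR-controlled inhibitor of eIF4E, had an RPKM of 115, 95.6 and 121 in vector and 124, 149 and 108 in oeRNF112 (log2 fold change 0.11, adjusted p = 0.63). EIF4ENIF1, which carries eIF4E into the nucleus, had a log2 fold change of -0.20 (adjusted p = 0.20).

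EIF5A2 showed the largest rise among the members. It encodes a paralog of eIF5A, the hypusine-containing factor that helps the ribosome through difficult sequences. Its RPKM was 5.85, 5.74 and 5.24 in vector and 7.78, 10.1 and 10.8 in oeRNF112, and all oeRNF112 samples were above all vector samples. The log2 fold change was 0.68 ± 0.13 (adjusted p = 0.0063). EIF5A had an RPKM of 178, 162 and 197 in vector and 162, 180 and 157 in oeRNF112, which overlapped (log2 fold change -0.20 ± 0.11, adjusted p = 0.24). The ratio of EIF5A to EIF5A2 was 30.4, 28.1 and 37.5 in vector and 20.8, 17.9 and 14.5 in oeRNF112. Reads of EIF5A may be split with its copy EIF5AL1.

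**Figure D3:**
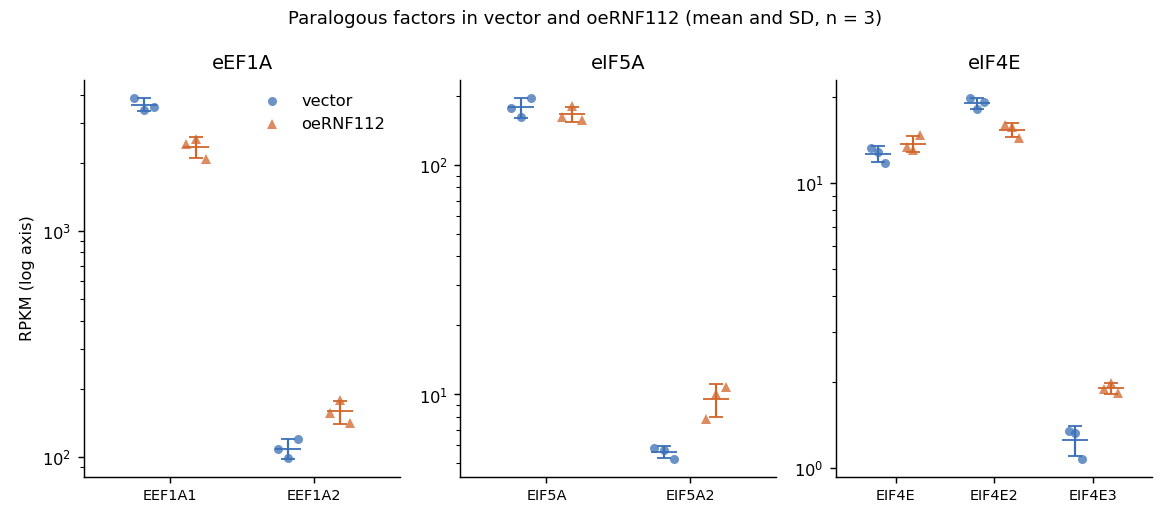
RPKM (log axis) of paralogous factors in vector (blue circles) and oeRNF112 (orange triangles), with points for samples and bars for the mean and SD (n = 3). EEF1A1 and EIF4E2 lie lower in oeRNF112, EEF1A2, EIF5A2 and EIF4E3 lie higher, and EIF5A and EIF4E overlap.

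Among the other joining factors, EIF6, which keeps the ribosomal subunits apart, had an RPKM of 139, 115 and 151 in vector and 112, 130 and 108 in oeRNF112. These groups overlapped (log2 fold change -0.31 ± 0.13, adjusted p = 0.12), and without vector 2 the adjusted p was 0.017. EIF5 and EIF5B, which act in GTP hydrolysis and subunit joining, had log2 fold changes of 0.07 and -0.02.

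Among the genes grouped under start codon selection and under initiator tRNA delivery, 1 gene passed. Of the 4 genes in the first group (EIF1, EIF1B, EIF1AX and EIF1AD) none passed, with a median log2 fold change of 0.13. EIF1, which guards start codon selection, had an RPKM of 241, 216 and 255 in vector and 281, 318 and 258 in oeRNF112 (log2 fold change 0.17, adjusted p = 0.32). With the length trend removed EIF1 and EIF1B passed (adjusted p = 0.027 and 0.016). Of the 6 genes of eIF2 and of alternative delivery, EIF2D fell. EIF2D, which can deliver tRNA without eIF2 and acts in ribosome recycling, had an RPKM of 11.7, 10.3 and 11.3 in vector and 8.36, 9.04 and 8.21 in oeRNF112. Its log2 fold change was -0.47 ± 0.10 (adjusted p = 0.011, and 0.068 without vector 1 and 0.059 without oeRNF112 1).

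EIF2S1, the eIF2 subunit whose phosphorylation lowers initiation under stress, had an RPKM of 44.9, 42.6 and 44.8 in vector and 50.01, 53.1 and 52.7 in oeRNF112. All oeRNF112 samples were higher, but its log2 fold change of 0.14 ± 0.08 had an adjusted p of 0.26 (between 0.037 and 0.56 over the alternatives). EIF2S3, the most abundant gene of the group, had a log2 fold change of -0.08 (adjusted p = 0.51) and shares sequence with its copy EIF2S3B.

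Of the 5 subunits of eIF2B, the exchange factor of eIF2, EIF2B1 passed and the median was -0.18. This median was -0.25 without vector 2, -0.10 without vector 3, and -0.09 without oeRNF112 3 or with library totals. EIF2B1 had an RPKM of 24.6, 24.5 and 27.3 in vector and 21.6, 21.2 and 21.4 in oeRNF112. It fell by 0.35 ± 0.09 (adjusted p = 0.025), and without any 1 of vector 1, vector 3 and the 3 oeRNF112 samples the adjusted p was between 0.057 and 0.096. With library totals in place of TMM its adjusted p was 0.069. Of the noncoding transcripts, EIF3J-DT had 260, 340 and 266 counts in vector and 252, 259 and 188 in oeRNF112 (log2 fold change -0.39, adjusted p = 0.15), and EIF2B5-DT had between 2 and 23 counts per sample.

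The TOP motif was followed in 2 ways. A list of 10 members known as TOP mRNAs, made from general knowledge with earlier results of these data in view, had 8 genes that fell, 1 that rose (EEF1A2) and 1 that did not pass (EEF1D), with a median log2 fold change of -0.55. The number that fell was 5 without vector 1 and 5 without oeRNF112 1. Its share of all counts was 2.26%, 2.03% and 2.16% in vector and 1.53%, 1.63% and 1.36% in oeRNF112. All 77 cytosolic ribosomal protein genes, added after values were seen, had fitted log2 fold changes below 0, with a median of -0.39, and 24 of them fell. This count depended on single libraries and was 1 without vector 1, 59 without vector 2, 4 without vector 3, 2 without oeRNF112 1, 51 without oeRNF112 2 and 10 without oeRNF112 3. It also depended on the fit, and was 39 with DESeq2, 15 with library totals, 5 to 8 by limma on RPKM and 42 with the length trend removed. Their share of counts was 9.69%, 8.03% and 10.1% in vector and 7.23%, 8.49% and 6.35% in oeRNF112, so that vector 2 lay below oeRNF112 2.

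The listed transcript starts were then searched, a choice also made after values were seen. A start was counted as pyrimidine-rich where its first base was C and at least 4 pyrimidines followed. The RefSeq table held 52 of the 65 members, and 13 of these (25%) had such a start, against 5.14% of the 27305 genes of the table and 7.29% of its genes that were tested. The members with it that were not yet shown include EIF4B, EIF3F and EIF2D, which fell, and EIF4A2, which did not pass. EIF5A2, which rose, and EIF4E begin otherwise and are shown for contrast, with no capitals.

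EIF4B, chr12:53006446-53006475, plus strand: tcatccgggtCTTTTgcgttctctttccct
EIF3F, chr11:7987327-7987356, plus strand: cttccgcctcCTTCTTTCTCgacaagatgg
EIF2D, chr1:206612446-206612475, minus strand: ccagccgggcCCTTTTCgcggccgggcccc
EIF4A2, chr3:186783567-186783596, plus strand: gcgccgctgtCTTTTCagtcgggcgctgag
EIF5A2, chr3:170908618-170908647, minus strand: cccgtctcttggaactgccgcggccgccac
EIF4E, chr4:98929114-98929143, minus strand: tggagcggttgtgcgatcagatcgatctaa

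EIF3L, EIF3E and EIF3H, which fell, and EEF1A2, which rose, were not in the RefSeq table and belong to neither class of start. Of the 13 members with a pyrimidine-rich start 6 fell and none rose, with a median log2 fold change of -0.28. Of the 37 tested members with another start 5 fell and 2 rose, with a median of -0.08. With library totals 6 of the former fell and 1 rose (EIF4A2), with a median of -0.18. Of the latter 2 then fell and 2 rose, with a median of 0.01. Without vector 1 or without oeRNF112 1, 4 of the former and 0 of the latter were called lower. Without vector 3, oeRNF112 2 and oeRNF112 3 these were 5, 6 and 5 of the former and 3, 3 and 1 of the latter. Without vector 2 the contrast was smaller, with 7 of the former called lower and, of the latter, EEF1G, EIF2B1, EIF3C, EIF3I, EIF4E2 and EIF6. Among all genes tested, 11.9% of 832 with such a start fell, with a median of -0.09, and 7.98% of 10583 without it fell, with a median of 0.00. The start of an mRNA can differ from the one listed, and a match to these letters is a description of the window only.

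**Figure D4:**
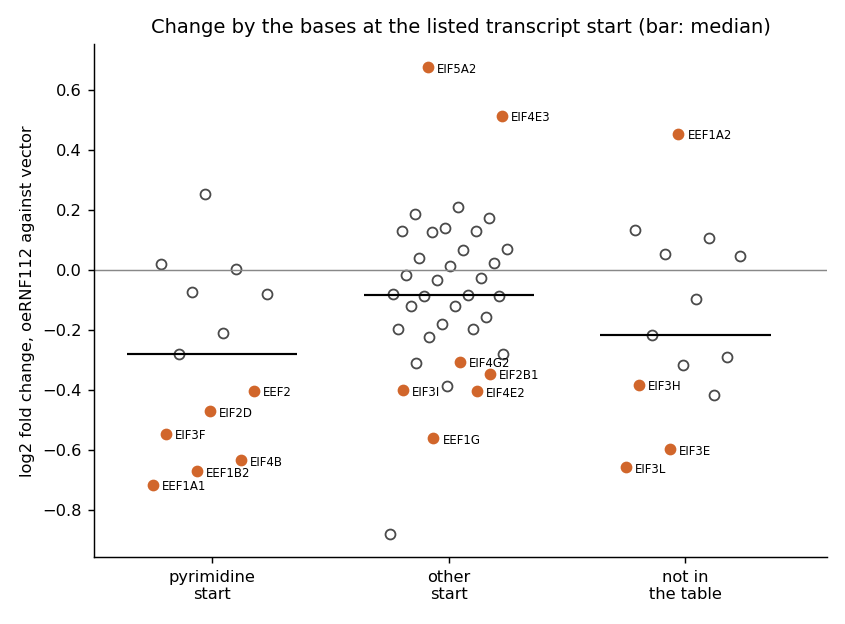
Log2 fold change of the 63 tested members by the listed transcript start (pyrimidine-rich, other, or member not in the table). Orange circles have an adjusted p under 0.05, open circles do not, and bars are medians. The medians are -0.28 for the 13 with a pyrimidine-rich start and -0.08 for the 37 with another.

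The E-box CACGTG, which reads the same on both strands, was searched in the 250 bases before the listed start. It was found in 13 of the 52 members (25%), in 7.73% of all genes of the table and in 10.9% of its genes that were tested. Windows of 4 genes are shown because their changes differed, with the E-box in capitals.

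EIF4B, chr12:53006422-53006451, plus strand: gcccgctataatCACGTGattgcctcatcc
EIF3F, chr11:7987257-7987286, plus strand: aaagctctagctCACGTGgtgtatattcag
EIF4E, chr4:98929188-98929217, minus strand: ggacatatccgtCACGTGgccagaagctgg
EIF5A2, chr3:170908782-170908811, minus strand: cagggcgctcttCACGTGactgggcggagc

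EIF4B and EIF3F fell, EIF4E did not pass and EIF5A2 rose. Of the 12 tested members with an E-box 2 fell and 1 rose, and the median log2 fold change was -0.06. Of the 38 without it 9 fell and 1 rose, with a median of -0.14. Without vector 1 or without oeRNF112 1, 2 members with an E-box and 2 without it were called lower, so the counts showed no stable contrast. Without vector 3, oeRNF112 3 or vector 2 those without it numbered 6, 4 and 10. Among all genes tested, 9.19% of 1241 with an E-box fell and 8.62% rose, with a median of -0.01, and 8.16% of 10174 without it fell and 9.84% rose, with a median of 0.00. A list of 10 analysed members that are known as MYC targets, made with earlier results in view, had 2 that fell (EEF1B2 and EIF4G2) and none that rose, with a median of -0.08. With any sample but vector 3 left out, EEF1B2 alone fell.

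Gene length moved with the samples. Among all genes under 2000 bases the median log2 deviation from the vector mean was 0.02, -0.17 and 0.13 in vector and -0.14, 0.00 and -0.26 in oeRNF112. Among genes of at least 5000 bases it was -0.02, 0.12 and -0.11 in vector and 0.06, -0.03 and 0.16 in oeRNF112. Vector 2, oeRNF112 1 and oeRNF112 3 thus tilted one way and vector 3 the other, so that 2 of the 3 oeRNF112 samples shared the tilt. The 15 members under 2000 bases had a median log2 fold change of -0.18 and the 14 of at least 5000 bases one of 0.00. The median of the short members was -0.25 without vector 2, -0.10 without vector 3 and -0.09 without oeRNF112 3. With library totals the medians of the short and long members were -0.09 and 0.10. Over the 63 members Pearson's r of the log2 fold change with log2 length was 0.14, as a description across genes measured in the same libraries. This r was 0.03 without vector 3, 0.06 without oeRNF112 3, 0.23 without vector 2 or without oeRNF112 2, and -0.06 with every gene kept. With the length trend of each sample removed, an alternative added after seeing the data, all 14 members that fell and all 3 that rose were still called, and the TOP list had a median of -0.48. The median became -0.13 in place of -0.28 for eIF3 and -0.10 in place of -0.18 for eIF2B. For members with a mean RPKM of at least 100 it became -0.19 in place of -0.29. It stayed at -0.10 over all members and at -0.33 over the eIF3 octamer. In all 25 members were then called, the others being EEF1E1, EIF1, EIF1B, EIF4A2 and EIF4EBP1, fitted higher, and EIF2A, EIF3C and EIF4ENIF1, fitted lower. More genes were called by that fit in general, 4134 of the 14467 tested against 2620 after TMM alone.

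**Figure D5:**
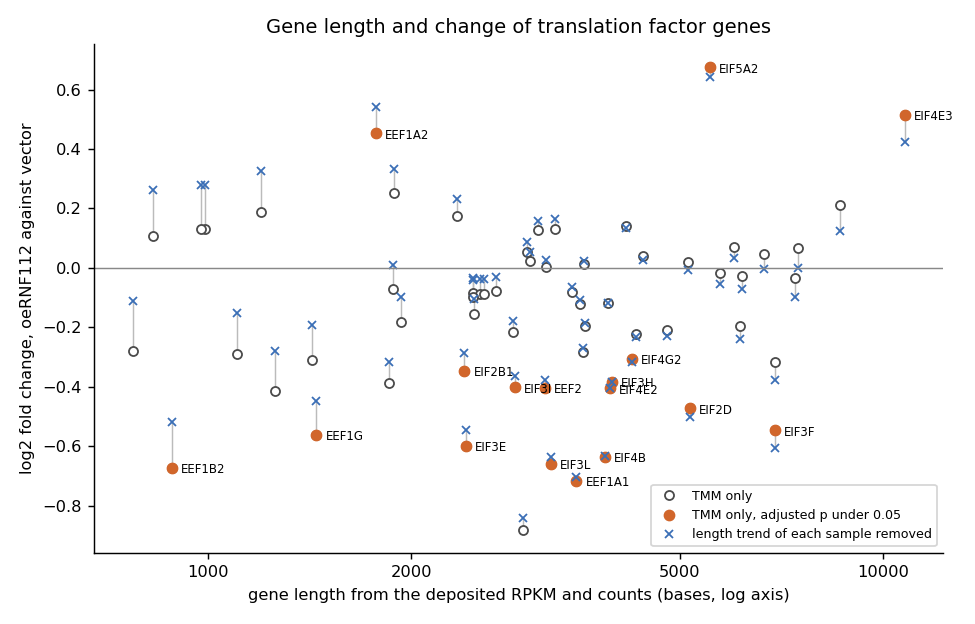
Log2 fold change of the 63 tested members by gene length in bases (log axis). Circles are values after TMM alone, orange where the adjusted p was under 0.05, and blue crosses joined to them by lines are values with the length trend of each sample removed. Crosses lie above the circles for short genes and close to them for EEF1A1, EIF4B and EIF3L.

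Genes that work with these factors were read in the same fit, from lists of the pathway. Of 6 kinases and phosphatase subunits that act on eIF2, 2 rose and none fell, with a median log2 fold change of 0.21. PPP1R15A, the stress-induced subunit that directs eIF2 dephosphorylation, had 3197, 2899 and 3446 counts in vector and 6406, 7367 and 6969 in oeRNF112. It rose by 1.04 ± 0.10 (adjusted p = 0.0003), with a wide gap between the groups. EIF2AK2, the kinase PKR that responds to double-stranded RNA, had 5993, 7117 and 4752 counts in vector and 9157, 8452 and 11082 in oeRNF112 (log2 fold change 0.60 ± 0.14, adjusted p = 0.016, and 0.072 without vector 1 and 0.052 without oeRNF112 3).

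Of 16 partners of the cap and the poly(A) tail and their controllers, 2 fell and none rose, with a median of -0.12. PABPC1, the poly(A)-binding protein and itself a TOP mRNA, had a log2 fold change of -0.30 ± 0.09 (adjusted p = 0.044), and between 0.062 and 0.16 with any sample left out. DDX3X, an RNA helicase, had one of -0.40 ± 0.12 (adjusted p = 0.048), and between 0.081 and 0.16 without any 1 of vector 1, vector 2 and the 3 oeRNF112 samples. MTOR and LARP1, which control TOP mRNAs, had log2 fold changes of -0.15 (adjusted p = 0.49) and 0.05 (adjusted p = 0.80).

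None of 8 genes of termination, recycling and rescue passed, with a median of -0.07, and none of 3 genes of selenocysteine elongation, with a median of -0.02. Of 9 genes that modify eIF5A or eEF2, with a median of -0.13, DPH5, a diphthamide synthesis enzyme, fell by 0.38 ± 0.10 (adjusted p = 0.024, and between 0.055 and 0.12 without vector 1, vector 3, oeRNF112 1 or oeRNF112 3). Of 9 mitochondrial translation factors, with a median of -0.08, TUFM, the mitochondrial elongation factor Tu, fell by 0.41 ± 0.10 (adjusted p = 0.017, and between 0.063 and 0.077 without vector 1, oeRNF112 1 or oeRNF112 3).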

How the data were processed

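RNA of 6 T24 samples was sequenced after stranded mRNA library preparation. As deposited, one table holds raw read counts for each gene and the other RPKM, which the authors made from the same counts with one length per gene. The submitters' processing notes name Trimmomatic 0.36, featureCounts, Subread 1.5.1 and GRCh38, and the aligner is not given in the sources used here. Counts were analysed with edgeR 4.0.16 in R 4.3.3 (its filter on low counts, TMM factors, quasi-likelihood test, Benjamini-Hochberg adjustment over all genes tested, threshold 0.05), since the study gives no gene-by-gene test for the RNA-seq. Scripts were tested on simulated data. Transcript starts came from RefSeq, GRCh38.p14. Genes named are RNF112, every member called, the most abundant and the smallest-p member of each role, a fixed list of well-known factors, members too low to test and called genes of related lists, and a few others were named after their values were seen. Members and lists were chosen with earlier results of these data known. Alternatives were DESeq2 1.42.0, other scalings and filters, limma 3.58.1 on log2(RPKM + 1) or log2(RPKM + 0.1), a replicate block, each sample left out, and, added after seeing the data, a gene length trend removed (lowess, span 0.3) and TMM without translation factor and ribosomal protein genes. Total counts of 40029547 to 41259569 per sample leave members with few counts imprecise.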

Additional observations from a re-analysis of the deposited data

How the results depend on the processing

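Of 17 alternatives, 15 were planned and 2 were added after seeing the data. EEF1A1, EEF1B2, EIF3E, EIF3L and EIF4B stayed lower and EIF5A2 higher, each past the threshold, in all 17. With library totals in place of TMM the members' median log2 fold change was -0.0021 and that of all genes 0.096 in place of 0.003, so that members less all genes was -0.098 in place of -0.099, and calls that rose were 75.4% of calls in place of 55.0%. With these totals 11 members fell and 4 rose, as EIF2B1, EIF3I and EIF4G2 lost their calls and EIF4A2 passed. limma on RPKM gave 5 members that rose and a median of -0.0027 (pseudocount 1), -0.0032 (pseudocount 0.1) and 0.0012 (mean RPKM of at least 1). With the length trend removed 4134 genes and 8 members that rose were called.

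With 1 sample left out, 1061 to 3387 genes and 7 to 22 members were called (6 to 19 that fell, 1 to 3 that rose), the fewest genes without vector 1. The replicate numbers gave no sign of pairing, since same-numbered samples had correlations of deviations of -0.18, -0.54 and -0.45. Between differently numbered samples these ran from -0.10 (vector 1 with oeRNF112 3) to 0.53 (vector 2 with oeRNF112 3). Whether samples were paired in another way was not tested. With the number as a replicate block 876 genes and 6 members were called, 5 that fell and 1 that rose.

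Values that changed sign belonged to genes that did not pass, and not all of these are listed here. EEF2K and EIF5B were 0.058 and 0.079 with library totals. EIF3A and EIF3M were -0.003 and -0.008 with the length trend removed. EIF2S3 was 0.0145 with library totals and 0.0144, 0.0145 and 0.0144 by limma. EIF4G1 was 0.067 with library totals, 0.0637, 0.0643 and 0.0637 by limma, and with 1 sample left out between -0.084 and 0.0606 (0.0289 without vector 2, 0.0606 without oeRNF112 2). EIF4EBP1 was between -0.0233 and 0.22 with 1 sample left out (-0.0012 without vector 2, -0.0233 without oeRNF112 2), and EIF4E between -0.0179 and 0.082 (-0.0179 without vector 3, -0.0170 without oeRNF112 3). The cause was not tested.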
